A study of Mus musculus with 59 samples.

Results

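The response of brown adipose tissue (BAT) to cold was examined in control (CTRL) mice, by comparing 3 mice kept at 4 °C (mice 1, 2 and 5) with 4 mice kept at 30 °C (mice 19, 20, 21 and 22). These 7 mice were chosen by genotype and temperature, as the sample labels give them, out of 59 BAT samples in the whole series and 16 in the temperature experiment. All were C57BL/6J males aged 8 to 12 weeks. The other 9 mice of the temperature experiment carried the BATKO genotype, 4 at 4 °C and 5 at 30 °C. Neither the labels nor the paper's text describes the genetic change of BATKO mice or what allele, if any, the CTRL mice carried, and nothing says whether mice shared a litter or a cage. The name of the experiment holds 24 h, but what that time refers to is not stated. RNA was extracted with Trizol, each mouse gave 1 library made with a total RNA kit (SENSE, Lexogen), and the libraries were read on a NextSeq 500. The p-values therefore measure a spread between mice within 1 experiment, and this spread was estimated over all 16 mice, BATKO mice included.

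BAT produces heat. Cold makes sympathetic nerves release noradrenaline, which acts on beta-adrenergic receptors of brown adipocytes, raises cyclic AMP and sets free fatty acids from lipid droplets. The fatty acids are burnt in mitochondria, where the uncoupling protein UCP1 lets protons flow back without making ATP, and the same signal raises transcription of Ucp1 and of Dio2, the enzyme that turns T4 into the active hormone T3 inside the cell. At about 30 °C, the thermoneutral zone of the mouse, this drive is low and BAT takes on a paler, more lipid-filled state.

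The total count per CTRL mouse was between 9673748 and 12883525. Transcripts of the mitochondrial genome took 46.4% to 55.3% of counts at 4 °C and 45.6% to 54.7% at 30 °C, and the TMM scaling factors were 0.716 to 0.826 at 4 °C and 0.934 to 1.29 at 30 °C. The tissue label was checked by 12 brown adipocyte markers, none of which was at 0 in all mice, and whose summed normalised counts were 214197 to 270919 at 4 °C and 27334 to 51598 at 30 °C. Of these markers 9 were called higher and 2 lower. Ucp1 alone made up 68.1% to 68.9% of the sum at 4 °C and 5.82% to 27.4% at 30 °C, and without it the sum was 68395 to 84171 and 25742 to 37457. Markers of other cells were also present. Skeletal muscle stood out, with a sum of 14 markers of 2039, 3635 and 8157 at 4 °C and of 135, 24210, 57906 and 729.9 at 30 °C, so mice 20 and 21 carried far more muscle RNA than the others. Mouse 1 at 4 °C was below 0.5 of the lowest other mouse of its group in 201 genes with a mean above 50, and mice 2 and 5 in 25 and 28. The median exonic length of these genes was 2330 bases for mouse 1, 5003 for mouse 2 and 2392 for mouse 5, against 4198 over all genes tested. Mouse 19 at 30 °C was below 0.5 of the lowest other mouse in 157 genes, against 4 to 25 for the other mice at 30 °C. Mouse 21 was over 2 times the highest other mouse of its group in 84 genes, mouse 5 in 83, mouse 1 in 58 and the others in 10 to 30. The part of these differences between libraries in the results was not tested, and values without the muscle-rich libraries, or without a single mouse, are given where they move the higher or lower count of a gene list by over 1.5 times and by more than 1 gene. Without the muscle-rich libraries, 2 of the 14 muscle markers were called higher and 0 lower, against 0 in either direction with them.

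**Figure D1:**
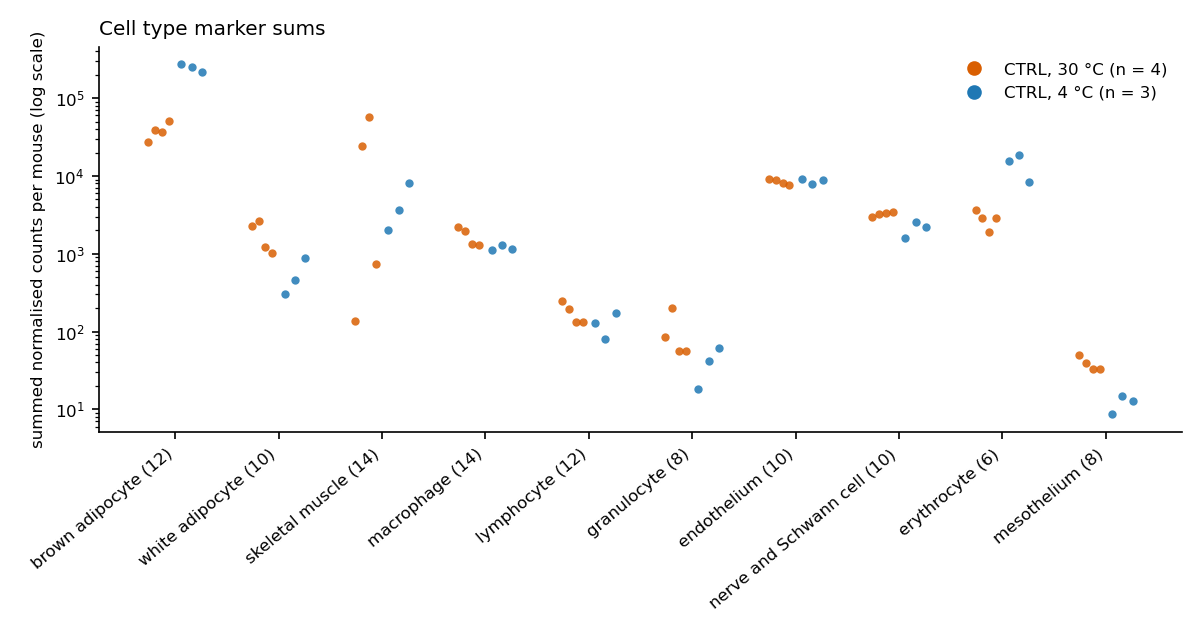
Summed normalised counts of 10 lists of cell type markers in each CTRL mouse, on a log scale, with the number of markers in brackets. Orange points are the 4 mice at 30 °C and blue points the 3 mice at 4 °C, in the order of their numbers. The brown adipocyte sums at 4 °C lie between 214197 and 270919, above all mice at 30 °C, while the muscle sums at 30 °C spread from 135 to 57906.

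Of 13257 genes with a mean normalised count above 10, cold raised 3507 (26.5%) and lowered 2997 (22.6%), so that 6504 genes (49.1%) passed an adjusted p of 0.05 by edgeR's quasi-likelihood test. Among these, 1735 rose and 1551 fell at least 2-fold, and 104 rose and 95 fell at least 8-fold. In 6689 genes (50.5%) the mice at the 2 temperatures did not overlap. The split between the directions depended on the scaling. With TMM the median log2 fold change of all genes tested was -0.01 and 53.92% of calls were higher in cold, whereas by library size alone the median was -0.61, 1336 genes were higher, 6225 were lower and 17.67% of calls were higher. Values below are relative to the TMM scale, and the counts of a gene list by library size alone are given where they bear on its direction. Library size alone shifts the genes downwards as a whole. Its list counts are therefore to be read against 1336 higher and 6225 lower of 13320 genes, not against the TMM counts. In whole tissue, a change in the share of a cell type and a change of RNA per cell cannot be told apart.

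Values are normalised counts per mouse, in the order of mice 1, 2 and 5 at 4 °C and mice 19, 20, 21 and 22 at 30 °C. Fold changes are log2 of cold over thermoneutrality, and adjusted p-values are from edgeR with Benjamini-Hochberg adjustment over all 13257 genes. The standard error (SE) beside a fold change is its absolute value over the square root of the test's F statistic. It is derived from the test and is not a measure apart from the p-value. Levels of different genes are not compared, since counts depend on transcript length.

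The promoters of 5 genes are shown because their transcripts lie at the centre of the thermogenic and of the immediate early response, and because both groups are known targets of cyclic AMP. Each is the RefSeq sequence (GRCm38.p6) from 250 bases before to 50 bases after the gene's start, 5′ to 3′ on the gene's strand. Capitals mark TGACG, the core of the cyclic AMP response element, or its reverse complement CGTCA, and AGGTCA, the half-site of nuclear receptors, or its reverse complement TGACCT. The promoters lie at chr8:83290098-83290397 on the plus strand for Ucp1, chr12:90738989-90739288 on the minus strand for Dio2, chr5:51567676-51567975 on the minus strand for Ppargc1a, chr12:85473640-85473939 on the plus strand for Fos and chr15:101266596-101266895 on the plus strand for Nr4a1.
Ucp1: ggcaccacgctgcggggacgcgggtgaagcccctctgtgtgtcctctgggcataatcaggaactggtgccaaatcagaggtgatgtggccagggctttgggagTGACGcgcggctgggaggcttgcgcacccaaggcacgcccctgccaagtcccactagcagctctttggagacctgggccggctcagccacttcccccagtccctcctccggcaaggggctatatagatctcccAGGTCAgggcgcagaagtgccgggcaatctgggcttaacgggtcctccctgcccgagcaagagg
Dio2: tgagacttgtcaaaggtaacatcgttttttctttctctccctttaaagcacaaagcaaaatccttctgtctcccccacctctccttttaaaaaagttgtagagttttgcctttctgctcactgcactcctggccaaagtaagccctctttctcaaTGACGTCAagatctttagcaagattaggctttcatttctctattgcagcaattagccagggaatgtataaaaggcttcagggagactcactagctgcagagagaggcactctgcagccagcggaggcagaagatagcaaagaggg
Ppargc1a: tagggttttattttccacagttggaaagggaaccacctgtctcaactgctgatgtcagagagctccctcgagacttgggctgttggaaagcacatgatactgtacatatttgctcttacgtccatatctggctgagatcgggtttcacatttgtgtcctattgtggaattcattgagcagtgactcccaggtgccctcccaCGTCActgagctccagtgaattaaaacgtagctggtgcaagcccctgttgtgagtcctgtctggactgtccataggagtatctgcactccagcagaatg
Fos: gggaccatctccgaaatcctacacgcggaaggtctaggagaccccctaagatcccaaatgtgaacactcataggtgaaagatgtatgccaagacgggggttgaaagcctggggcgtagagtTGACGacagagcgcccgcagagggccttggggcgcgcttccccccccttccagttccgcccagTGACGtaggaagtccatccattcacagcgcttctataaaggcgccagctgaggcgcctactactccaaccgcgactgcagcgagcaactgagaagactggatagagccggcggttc
Nr4a1: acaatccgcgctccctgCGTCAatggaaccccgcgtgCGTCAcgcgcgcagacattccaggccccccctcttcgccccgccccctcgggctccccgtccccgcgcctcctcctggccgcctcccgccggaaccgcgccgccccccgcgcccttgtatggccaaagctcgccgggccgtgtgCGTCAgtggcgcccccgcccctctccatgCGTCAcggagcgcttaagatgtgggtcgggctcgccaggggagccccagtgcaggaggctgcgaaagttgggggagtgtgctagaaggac

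The whole element TGACGTCA stood in the Dio2 window, where it holds TGACG on both strands, 95 bases before the start. The Ucp1 window held TGACG 147 bases and AGGTCA 14 bases before the start, and the Fos window held TGACG at 129 and 66 bases before it. Nr4a1 held it 4 times. Over the 9527 tested genes with a promoter sequence, TGACG was in 35.6%, TGACGTCA in 3.55% and AGGTCA in 14.7%, against 20.8%, 1.79% and 16.3% of all 32851 promoters. In genes higher at 4 °C (2616 promoters) these shares were 37.7%, 3.86% and 17.6%, and in genes lower at 4 °C (2204 promoters) 32%, 2.63% and 13.2%. TGACG was in 12 of 19 immediate early promoters (63.2%) and in 6 of 18 of the brown fat list (33.3%). These are matches of letters, not binding sites, and windows of 300 bases leave out distal enhancers.

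Genes of brown fat identity and thermogenesis were raised for the most part, with 15 of 24 tested members higher, 3 lower and a median log2 fold change of 1.21 (13 higher and 3 lower by library size alone). Ucp1 stood at 186749, 174862 and 145802 at 4 °C and at 1592, 8631, 7625 and 14141 at 30 °C. Every mouse in the cold was far above every mouse at thermoneutrality, among which mouse 19 was the lowest (log2 fold change 4.40, SE 0.52, edgeR adjusted p = 4.6e-06, or 21.2-fold). Ucp1 took 0.970% to 1.42% of all counts in cold and 0.0189% to 0.122% at 30 °C. Dio2 was at 3685, 5517 and 4659 in cold and 6.08, 309, 183 and 806 at 30 °C, and mouse 19 was again lowest (log2 fold change 3.83, SE 0.92, edgeR adjusted p = 0.0025). Elovl3, an elongase of very long chain fatty acids that marks active brown fat, had the largest rise among genes with a mean above 50, from 0.868, 4.35, 7.23 and 24.3 at 30 °C to 9915, 12911 and 11539 at 4 °C (log2 fold change 10.33, SE 0.77, edgeR adjusted p = 6.9e-08). The groups of these 3 genes did not overlap.

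**Figure D2:**
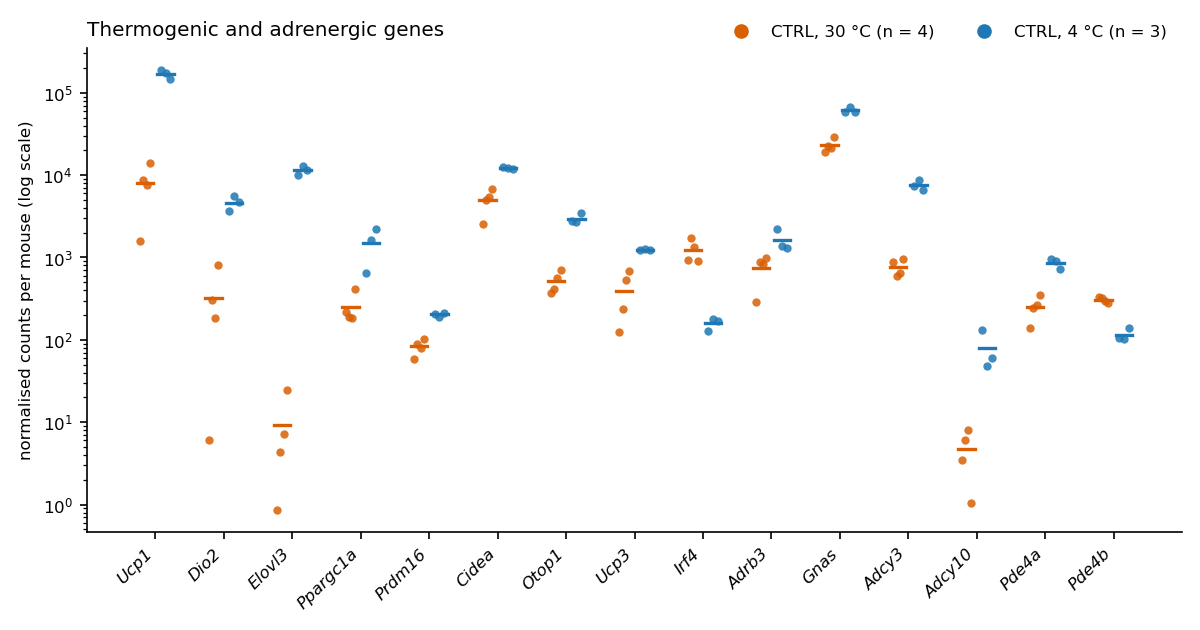
Normalised counts per mouse of 15 thermogenic and adrenergic genes, on a log scale. Orange points are CTRL mice at 30 °C (n = 4), blue points CTRL mice at 4 °C (n = 3) and bars the means of each group. Ucp1, Dio2, Elovl3 and Adcy3 sit higher in every mouse at 4 °C, whereas Irf4 and Pde4b sit lower.

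Transcriptional regulators of the brown fat programme moved in both directions. Ppargc1a, the coactivator of mitochondrial biogenesis, was at 656, 1617 and 2189 in cold and 218, 187, 183 and 413 at 30 °C, with mouse 1 lowest in cold and mouse 22 highest at 30 °C (log2 fold change 2.57, SE 0.35, edgeR adjusted p = 1.7e-05). Esrra, its nuclear receptor partner, rose from 136 to 231 to 469 to 967 (log2 fold change 1.96, SE 0.21, edgeR adjusted p = 1.5e-06), and Prdm16, which maintains brown identity, from 59.1 to 104 to 189.6 to 214 (log2 fold change 1.30, SE 0.16, edgeR adjusted p = 8.8e-06). Irf4, a transcription factor of adipocytes that responds to fasting and cold, went the opposite way. It was at 128, 180.3 and 169 in cold and 933, 1734, 1343 and 918 at 30 °C, without overlap (log2 fold change -2.95, SE 0.63, edgeR adjusted p = 0.00098). Ebf2, a determinant of the brown lineage, was also lower (log2 fold change -0.71, SE 0.19, edgeR adjusted p = 0.0063). Pparg and Zic1 did not pass the test, with log2 fold changes of 0.43 and 0.20. Among other members, the proton channel Otop1 (log2 fold change 2.52, SE 0.24, edgeR adjusted p = 7.1e-07), the potassium channel Kcnk3 (log2 fold change 1.98, SE 0.23, edgeR adjusted p = 4.1e-06), the lipid droplet protein Cidea (log2 fold change 1.32, SE 0.23, edgeR adjusted p = 0.00021) and Ucp3, a relative of Ucp1 (log2 fold change 1.66, SE 0.46, edgeR adjusted p = 0.0073), all rose. Cox8b and Cox7a1, subunits of cytochrome oxidase that mark brown fat, rose by 2.12 and 1.77 on the log2 scale.

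The adrenergic and cyclic AMP list had 13 of 34 members higher and 5 lower, with a median log2 fold change of 0.21 (4 and 11 by library size alone). Its median lay 0.226 above that of all genes with TMM and 0.2549 above it by library size alone. Adrb3, the receptor typical of adipocytes, was at 2199.7, 1364 and 1286 in cold and 289, 884, 829.7 and 981 at 30 °C (log2 fold change 1.12, SE 0.31, edgeR adjusted p = 0.007). Mouse 1 had the highest level of Adrb3, and without it the fold change was 0.80 with an adjusted p of 0.063. By library size alone Adrb3 did not pass either (adjusted p = 0.078). Downstream of the receptors, Gnas, the stimulatory G protein subunit, was at 58257, 67801 and 59201 in cold and 19108, 22872, 21458 and 29177 at 30 °C (log2 fold change 1.42, SE 0.19, edgeR adjusted p = 1.9e-05).

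The enzymes that make cyclic AMP split. Adcy3 was at 7395, 8668 and 6505 in cold and at 877, 594, 643 and 956 at 30 °C, a 9.80-fold rise with the groups far apart (log2 fold change 3.29, SE 0.28, edgeR adjusted p = 2e-07). Adcy10, the soluble cyclase, rose from a low level, 3.47, 6.09, 8.13 and 1.06, to 131, 48.1 and 59.5 (log2 fold change 4.03, SE 0.60, edgeR adjusted p = 4.3e-05), while Adcy9 fell (log2 fold change -1.98, SE 0.37, edgeR adjusted p = 0.00036). Of the phosphodiesterases that degrade it, Pde4a rose (log2 fold change 1.81, SE 0.28, edgeR adjusted p = 7.2e-05) and Pde4b fell (log2 fold change -1.41, SE 0.26, edgeR adjusted p = 0.00031). Prkaca, the catalytic subunit of protein kinase A, was higher (log2 fold change 1.00, SE 0.23, edgeR adjusted p = 0.0018), although by library size alone it no longer passed (adjusted p = 0.091).

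In the thyroid hormone axis, 7 of 17 members were higher and 4 lower (3 and 7 by library size alone), and without mouse 5 only 2 were lower. The lower share, 23.53%, was near the 22.6% over all genes, and the lower members are not named here. Dio2, described above, had the largest rise of the list, and the receptor transcripts did not pass the test. Thra was at 244, 236 and 158 in cold and 213, 239, 146 and 168 at 30 °C (log2 fold change 0.15, SE 0.21, edgeR adjusted p = 0.58), and Thrb was at 242, 262 and 298 and 355, 274, 310 and 349 (log2 fold change -0.27, SE 0.17, edgeR adjusted p = 0.2). The groups overlapped for both, and by library size alone Thrb was called lower (log2 fold change -0.86, adjusted p = 0.00084). Rxrg, a partner of the receptors, was at 243 to 298 in cold against 92.2 to 115 (log2 fold change 1.43, SE 0.23, edgeR adjusted p = 9.3e-05). Slc16a10, a transporter of thyroid hormone, rose (log2 fold change 1.16, SE 0.25, edgeR adjusted p = 0.0012), but did not pass by library size alone (adjusted p = 0.051). Thrsp, a lipogenic gene that T3 is known to induce, was at 63461, 24053 and 32522 in cold and 7151, 11082, 11225 and 12683 at 30 °C (log2 fold change 1.93, SE 0.30, edgeR adjusted p = 5.9e-05).

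Immediate early genes, which growth factors, stress and cyclic AMP induce within minutes, were lower in cold. Of 23 tested members 15 fell, none rose and the median log2 fold change was -2.07 (19 fell by library size alone). Egr1 was at 335, 888 and 481 in cold and 9983, 13942, 2396 and 1927 at 30 °C, where mice 19 and 20 were several times above mice 21 and 22 (log2 fold change -3.64, SE 0.68, edgeR adjusted p = 0.00035). Btg2, an antiproliferative gene, had the same division at 30 °C, with 168, 357 and 219 in cold and 4843, 6186, 1192 and 1043 at 30 °C (log2 fold change -3.74, SE 0.65, edgeR adjusted p = 0.00018). The groups did not overlap for either gene. Myc, a growth regulator, was at 13.5, 29.4 and 19.8 in cold and 344, 335, 163 and 124 at 30 °C (log2 fold change -3.53, SE 0.44, edgeR adjusted p = 7.4e-06), and Egr3 at 9.81, 32.1 and 1.17 and 488, 1177, 342 and 198 (log2 fold change -5.30, SE 0.90, edgeR adjusted p = 0.00014). Fos and Jun, the subunits of AP-1, fell by 2.44 (SE 0.72) and 2.49 (SE 0.42) on the log2 scale, with edgeR adjusted p = 0.0099 and 0.00015. Nr4a1, an orphan nuclear receptor, was at 937, 851 and 189 in cold and 2444, 6552, 1825 and 2229 at 30 °C (log2 fold change -2.31, SE 0.75, edgeR adjusted p = 0.017), but did not pass without mouse 5 (adjusted p = 0.069) or without mouse 20 (adjusted p = 0.064). The time from removal from the cage to freezing of the tissue is not given in the sources used here.

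Clock genes shifted, with 4 of 18 members higher and 10 lower (1 and 14 by library size alone, and 2 higher without mouse 1 or without mouse 22) and a median log2 fold change of -1.10. Arntl, which encodes the activator BMAL1, was at 58.9, 111 and 67.7 in cold and 19.1, 6.09, 6.33 and 5.28 at 30 °C (log2 fold change 3.07, SE 0.42, edgeR adjusted p = 1.8e-05). Its partner Clock and the repressor Nfil3 were also higher (0.82 and 1.13), the latter with mouse 2 highest. The PAR bZIP factors, whose transcription BMAL1 drives, were lower. Dbp was at 337, 122 and 223 in cold and 974, 1607, 1212 and 1036 at 30 °C (log2 fold change -2.41, SE 0.32, edgeR adjusted p = 1.5e-05), and Hlf was at 221, 212 and 252 and 583, 1035, 866 and 1064 (log2 fold change -1.96, SE 0.20, edgeR adjusted p = 1.4e-06). The period genes Per1, Per2 and Per3 fell by 1.49, 1.25 and 1.81 on the log2 scale. The groups of Arntl, Dbp, Hlf and Per3 did not overlap. The hour of dissection is not given in the sources used here, so temperature and hour cannot be told apart for these genes.

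**Figure D3:**
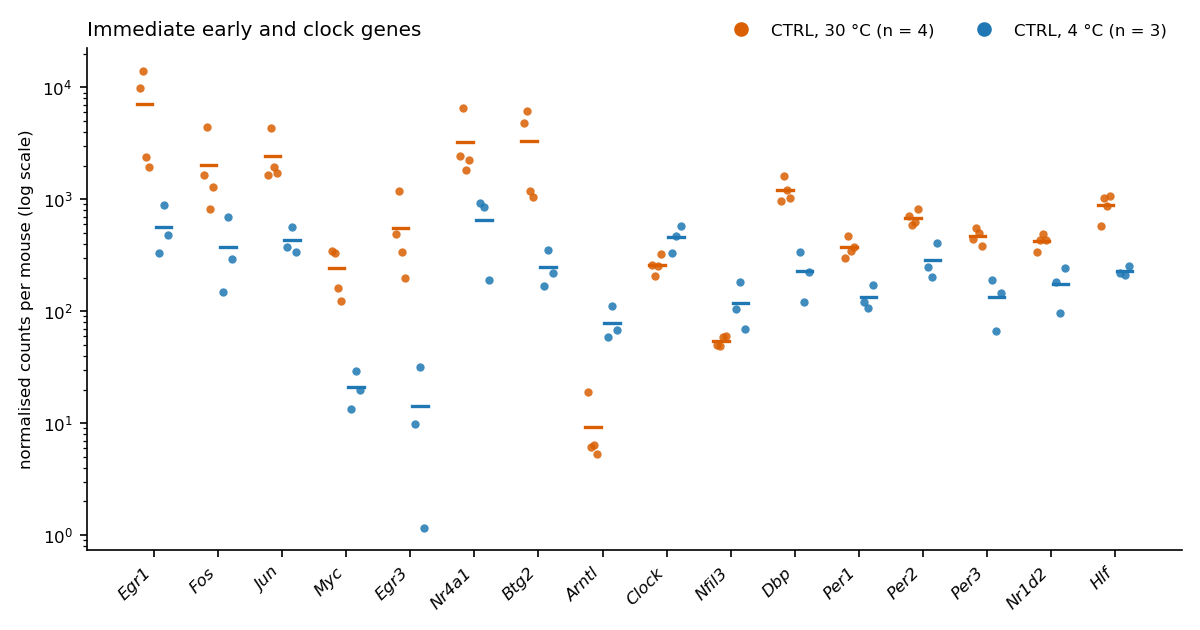
Normalised counts per mouse of 16 immediate early and clock genes, on a log scale. Orange points are CTRL mice at 30 °C (n = 4), blue points CTRL mice at 4 °C (n = 3) and bars the group means. Immediate early genes and the clock outputs Dbp and Hlf are lower at 4 °C, and Arntl is higher in every mouse at 4 °C.

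Of the genes of triglyceride turnover, lipid droplet proteins were mostly higher in cold and lipolysis genes mostly not called. Among lipolysis genes, 3 of 9 were higher (33.33%) and 1 lower (11.11%), against 26.5% and 22.6% over all genes (2 and 3 by library size alone). For so short a list the higher count is near that share. The lipases of the first steps were not called. Pnpla2, encoding ATGL, was at 19828, 23034 and 16711 in cold and 19606, 18359, 14633 and 17566 at 30 °C (log2 fold change 0.18, SE 0.24, edgeR adjusted p = 0.55), and Lipe, encoding hormone-sensitive lipase, was at 9226, 6975 and 5971 and 5243, 7794, 6501 and 6830 (log2 fold change 0.16, SE 0.22, edgeR adjusted p = 0.56). Their groups overlapped, and their fold changes were negative by library size alone. In contrast, Abhd5, the coactivator of ATGL, rose from 545 to 663 to 1566 to 2329 (log2 fold change 1.73, SE 0.17, edgeR adjusted p = 7.2e-07), and Mgll, the monoglyceride lipase, from 2559.5 to 3162 to 9262 to 14266 (log2 fold change 2.05, SE 0.19, edgeR adjusted p = 4.4e-07). Of 11 lipid droplet proteins, 8 were higher and none lower (6 and 1 by library size alone). Plin2 was at 16836, 12549 and 10323 in cold and 808, 1554, 1543 and 2418 at 30 °C (log2 fold change 3.07, SE 0.36, edgeR adjusted p = 3.9e-06), and Plin5, which tethers droplets to mitochondria, was at 1054, 1266 and 1010.5 and 162, 225, 187 and 343 (log2 fold change 2.28, SE 0.20, edgeR adjusted p = 2.3e-07).

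Triglyceride synthesis had 10 of 13 members higher and none lower, with a median log2 fold change of 1.53 (8 and 1 by library size alone). Agpat2, the acyltransferase that makes phosphatidic acid, was at 64422, 41854 and 33867 in cold and 662, 3026, 3315 and 6135 at 30 °C (log2 fold change 3.83, SE 0.54, edgeR adjusted p = 2.5e-05), and Gpam, which starts the pathway, at 5510.4, 4974 and 5945 and 913, 1000.05, 1210.2 and 1274 (log2 fold change 2.32, SE 0.17, edgeR adjusted p = 6.7e-08). Both were apart in every mouse. Of 6 genes that handle glycerol or make glycerol phosphate, 4 were higher and 1 lower, with a median of 0.87 (3 and 2 by library size alone). Gk, glycerol kinase, was at 5508, 7543 and 8027 in cold and 97.3, 130.4, 153 and 349 at 30 °C, a 38.6-fold rise (log2 fold change 5.27, SE 0.39, edgeR adjusted p = 6.9e-08). Gpd1, which makes glycerol phosphate from a glycolytic intermediate, was at 106894, 75751 and 73132 and 5693, 12265, 10751 and 16278 (log2 fold change 2.92, SE 0.31, edgeR adjusted p = 1.7e-06). Pck1, the enzyme of glyceroneogenesis, did not pass, at 7738, 7832 and 8887 in cold and 8713, 8538, 7698 and 14053 at 30 °C (log2 fold change -0.26, SE 0.19, edgeR adjusted p = 0.28, but called lower by library size alone with adjusted p = 0.00081), and the mitochondrial form Pck2 fell (log2 fold change -1.84, SE 0.30, edgeR adjusted p = 8.8e-05).

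In the list of genes for uptake of fatty acids 10 of 16 members were higher and 2 lower (7 and 5 by library size alone). Lpl, lipoprotein lipase, was at 74819, 130062 and 153485 in cold and 23663, 22692, 25739.9 and 34279 at 30 °C (log2 fold change 2.17, SE 0.22, edgeR adjusted p = 8.8e-07). Its inhibitors of the angiopoietin-like family diverged, since Angptl4 fell from 1260.2 to 3116 to 328 to 574 (log2 fold change -2.06, SE 0.32, edgeR adjusted p = 6.4e-05) and Angptl8 rose from 35.6 to 95.1 to 305 to 835 (log2 fold change 2.90, SE 0.52, edgeR adjusted p = 0.00022). The transporter Cd36 was higher (log2 fold change 0.92, SE 0.16, edgeR adjusted p = 0.00022), a call lost by library size alone (adjusted p = 0.104). De novo lipogenesis had 12 of 18 members higher and 2 lower, with a median of 1.04 (9 and 3 by library size alone). Fasn, fatty acid synthase, was at 161339, 68844 and 68115 in cold and 15966, 35529, 39445 and 38115 at 30 °C, with mouse 1 highest and mouse 19 lowest (log2 fold change 1.62, SE 0.36, edgeR adjusted p = 0.0015). Pgd, which supplies NADPH, was at 6154, 3289 and 3806 and 314, 589, 602 and 653 (log2 fold change 3.03, SE 0.31, edgeR adjusted p = 1.1e-06), and Elovl6, an elongase, rose by 1.96 (SE 0.27). The desaturase Scd1 did not follow, at 97778, 150283 and 184088 in cold and 123425, 210675, 243860 and 262683 at 30 °C (log2 fold change -0.54, SE 0.32, edgeR adjusted p = 0.17, but called lower by library size alone with adjusted p = 0.00087).

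Among genes of fatty acid oxidation in mitochondria, 13 of 21 members were higher and none lower, with a median of 0.68 (8 and 1 by library size alone, and 9 and 0 without the muscle-rich libraries). Acsl5, an acyl-CoA synthetase, was at 6678, 3964 and 5266 in cold and 188, 236, 277 and 274 at 30 °C (log2 fold change 4.44, SE 0.30, edgeR adjusted p = 3.1e-08). Of the carnitine shuttle, Slc25a20 was at 7618, 7341 and 6666 against 1198, 1546, 1759 and 2154 (log2 fold change 2.12, SE 0.18, edgeR adjusted p = 2e-07) and Cpt2 was higher by 1.74 (SE 0.18). Hadha, a subunit of the trifunctional protein, was higher by 1.87 (SE 0.22), whereas Cpt1b and Cpt1a did not pass (0.80 and 0.53). Thioesterases, which release free fatty acids from acyl-CoA, had 7 of 10 members higher and none lower (4 and 1 of 9 by library size alone). Acot11, first described as a cold-induced gene of BAT, was at 8594, 3981 and 4589 in cold and 86.8, 229.6, 400.4 and 443 at 30 °C (log2 fold change 4.30, SE 0.48, edgeR adjusted p = 2.9e-06). Acot12 had no count in any of the 4 mice at 30 °C and normalised counts of 22.1, 44.1 and 51.3 in cold. The peroxisomal list had 14 of 19 members higher and 1 lower, with a median of 1.11 (12 and 4 by library size alone). Of the peroxisomal transporters of fatty acyl-CoA, Abcd3 rose from 810.2 to 1403 to 3676 to 5222 (log2 fold change 2.09, SE 0.19, edgeR adjusted p = 4.7e-07), and Abcd2 was the 1 member that fell, from 286 to 479 to 39.2 to 142 (log2 fold change -2.12, SE 0.37, edgeR adjusted p = 0.00019).

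Glucose uptake and glycolysis had 16 of 22 members higher and none lower, with a median of 1.44 (15 and 3 by library size alone). Slc2a4, the insulin-responsive transporter GLUT4, was at 6082, 4043 and 3686 in cold and 1163, 1926, 1589 and 1763 at 30 °C (log2 fold change 1.52, SE 0.20, edgeR adjusted p = 1.4e-05), while Slc2a1, encoding GLUT1, did not pass (0.06). Hexokinase 2, Hk2, was at 7675, 5162 and 4547 and 262, 870.5, 881 and 1352 (log2 fold change 2.78, SE 0.39, edgeR adjusted p = 2.4e-05), and phosphofructokinase Pfkp at 1379, 1679 and 1488 and 159, 195, 234 and 314 (log2 fold change 2.75, SE 0.20, edgeR adjusted p = 6.4e-08). No mouse in cold was below a mouse at 30 °C for either. Aldoa, aldolase, was at 86664, 51789 and 41415 in cold and 6218, 11902, 12731 and 11973 at 30 °C (log2 fold change 2.49, SE 0.28, edgeR adjusted p = 2.9e-06), Ldha rose by 2.33 (SE 0.26) and the lactate transporter Slc16a1 by 2.01 (SE 0.21). The 4 members of the Pfkfb family, which set the level of fructose 2,6-bisphosphate, did not pass, with log2 fold changes of -0.17, 0.08, 0.12 and -0.37.

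Of 18 genes of glycogen metabolism 9 were higher and 3 lower (5 and 5 by library size alone). Gys2, the glycogen synthase typical of liver, was at 1661, 1780.3 and 1534 in cold and 13.9, 35.7, 47.9 and 47.5 at 30 °C, a 45.9-fold rise (log2 fold change 5.52, SE 0.30, edgeR adjusted p = 4.2e-09). The phosphorylases that break glycogen down moved apart. Pygl, the liver form, was at 4230.2, 2956 and 4052 and 865, 1129.6, 1443 and 1366 (log2 fold change 1.64, SE 0.32, edgeR adjusted p = 0.00047), and Pygb, the brain form, fell from 399 to 579.9 to 111 to 195 (log2 fold change -1.71, SE 0.19, edgeR adjusted p = 3.2e-06). The muscle form Pygm did not pass (-1.90), and the part of muscle RNA in its level was not tested.

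Nuclear genes of mitochondria rose broadly and by modest amounts. Subunits of complex I were higher in 33 of 38 cases and lower in none, with a median log2 fold change of 0.90 (16 and 1 by library size alone). Ndufb2, an accessory subunit, had the largest rise among them, from 72.9, 103, 83.1 and 87.7 at 30 °C to 271, 329 and 271 at 4 °C (log2 fold change 1.74, SE 0.18, edgeR adjusted p = 1.3e-06). Subunits of complexes II to V were higher in 35 of 47 cases and lower in 2, with a median of 0.80 (16 and 3 by library size alone). The 2 that fell were Atp5g1 (-1.40) and Atp5s (-0.88). Mitochondrial ribosomal proteins were higher in 68 of 76 cases and lower in none, with a median of 1.01 (34 and 1 by library size alone). Few cytosolic ribosomal proteins rose, and their median was -0.39. Of 83, 9 were higher (10.84%, against 26.5% over all genes) and 18 lower (21.69%, near the 22.6% over all genes). The counts were 4 and 51 of 84 by library size alone, and 6 and 11 of 84 without the muscle-rich libraries. The lower count was 10, 9 and 11 without mouse 1, 19 or 20. Reads of these genes may be shared with pseudogenes.

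Pyruvate entry and the TCA cycle had 22 of 32 members higher and 1 lower, with a median of 0.77 (11 and 5 by library size alone). Mpc2, of the pyruvate carrier, was at 9318, 7950.4 and 8590.2 in cold and 1139, 1589, 1929 and 2062 at 30 °C (log2 fold change 2.36, SE 0.22, edgeR adjusted p = 4.1e-07), and Idh3a, of the NAD-dependent isocitrate dehydrogenase, at 43166, 43195 and 41030.4 and 11742, 14241, 13260.4 and 16358 (log2 fold change 1.61, SE 0.16, edgeR adjusted p = 9.6e-07). Idh2, the NADP-dependent enzyme, was the 1 member that fell, from 1488, 1504, 1462 and 1404 at 30 °C to 759, 619.7 and 456 at 4 °C (log2 fold change -1.26, SE 0.19, edgeR adjusted p = 5.1e-05). The groups of these 3 genes did not overlap. Cs, citrate synthase, was higher (log2 fold change 0.79, SE 0.18, edgeR adjusted p = 0.0019), a call lost by library size alone (adjusted p = 0.245). The pyruvate dehydrogenase kinases Pdk1, Pdk2, Pdk3 and Pdk4 did not pass (-0.46, 0.34, 0.66 and -0.11).

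Transcripts of the mitochondrial genome itself were uneven. Of 8 tested, 3 were higher and none lower, with a median of 0.55, but 1 higher and none lower without the muscle-rich libraries. By library size alone 2 were higher and 2 lower, with a median of -0.03. The median lay 0.5686 above that of all genes with TMM and 0.5806 above it by library size alone. The complex I subunit mt-Nd1 was at 1736710, 2421850 and 2152100 in cold and 514199, 827653, 772542 and 1114060 at 30 °C (log2 fold change 1.38, SE 0.25, edgeR adjusted p = 0.00022). The cytochrome oxidase subunit mt-Co1 was at 616862, 1154490 and 1307460 and 1350680, 1408150, 1346050 and 1815810, lower in every mouse in cold but not past the threshold (log2 fold change -0.53, SE 0.28, edgeR adjusted p = 0.13). Its call by library size alone was lower (log2 fold change -1.12, adjusted p = 0.00022). Polrmt, the polymerase of the mitochondrial genome, rose from 67.7 to 84.5 to 201 to 237 (log2 fold change 1.54, SE 0.21, edgeR adjusted p = 1.7e-05) and Tfam, its packaging and transcription factor, from 325 to 337 to 598 to 816 (log2 fold change 1.13, SE 0.17, edgeR adjusted p = 5.2e-05). Of the SLC25 carriers of the inner membrane 20 of 39 were higher and 3 lower (11 and 12 by library size alone, and 18 and 1 without the muscle-rich libraries). Their median lay 0.6186 above that of all genes with TMM and 0.6133 above it by library size alone.

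Cholesterol synthesis had 18 of 22 members higher and 1 lower, with a median of 1.48 (13 and 1 by library size alone). Sqle, squalene epoxidase, was at 469.6, 524 and 512 in cold and 41.7, 87.8, 67.8 and 88.7 at 30 °C (log2 fold change 2.81, SE 0.26, edgeR adjusted p = 4.7e-07), and Hsd17b7, of the later steps, at 568, 706 and 571 and 66.9, 67.0, 70.5 and 86.6 (log2 fold change 3.08, SE 0.21, edgeR adjusted p = 3.6e-08). Fdft1, squalene synthase, was the 1 member that fell, from 353, 436, 503 and 475 to 156, 209.7 and 237 (log2 fold change -1.14, SE 0.27, edgeR adjusted p = 0.0023).

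Catabolism of branched-chain amino acids had 9 of 20 members higher and 3 lower (1 and 9 of 21 by library size alone), but 4 and 1 of 21 without the muscle-rich libraries. Its median lay 0.3118 above that of all genes with TMM and 0.2294 above it by library size alone. Aldh6a1, of the valine branch, was the largest fall (log2 fold change -1.22, SE 0.23, edgeR adjusted p = 0.00037). Among genes of creatine and calcium cycling, which have been proposed to make heat without UCP1, 4 of 17 were higher and 6 lower, and the median was -1.06 (2 and 6 by library size alone). Without the muscle-rich libraries 4 of 15 were higher and 3 lower, and the median was 0.39. The list holds the muscle genes Ckm, Atp2a1, Ryr1 and Sln, none of which was called, and their part in this shift was not tested. Ckb, the brain-type creatine kinase of brown adipocytes, was at 557, 728 and 485 in cold and 34.7, 73.9, 49.7 and 60.2 at 30 °C (log2 fold change 3.43, SE 0.33, edgeR adjusted p = 7.1e-07). Alpl, a phosphatase that can act on phosphocreatine, rose from 100.3 to 132 to 637 to 921 (log2 fold change 2.71, SE 0.27, edgeR adjusted p = 8.8e-07), and the creatine transporter Slc6a8 fell from 285 to 417 to 113 to 149.6 (log2 fold change -1.43, SE 0.23, edgeR adjusted p = 8.8e-05). Atp2a2, the calcium pump SERCA2, was higher (log2 fold change 1.00, SE 0.20, edgeR adjusted p = 0.0005), a call lost by library size alone (adjusted p = 0.081).

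Of 22 secreted factors 5 were higher and 5 lower (2 and 7 by library size alone), near the shares of 26.5% and 22.6% over all genes, with 2 higher without mouse 1 and 3 without mouse 2. Bmp8b, a growth factor of active BAT, was at 2033, 1277 and 1287 in cold and 24.3, 20.0, 9.94 and 19.0 at 30 °C (log2 fold change 6.37, SE 0.46, edgeR adjusted p = 6.1e-08). It overlaps Oxct2b on the same strand, so part of its count may belong to that gene. Fgf21, a hormone of the stress and fasting response, had 0 or 1 count per mouse at 30 °C and normalised counts of 62.5, 22.7 and 23.3 in cold. Lep, leptin, was at 9.81, 4.01 and 10.5 in cold and 274, 364, 207 and 149 at 30 °C (log2 fold change -4.90, SE 0.50, edgeR adjusted p = 1.1e-06), and Igf1 at 65.0, 88.1 and 82.8 and 395, 415, 457 and 372 (log2 fold change -2.38, SE 0.22, edgeR adjusted p = 4.9e-07). Both were lower in every mouse in cold. Adipoq, adiponectin, was at 3427 to 4604 against 6997 to 10119 (log2 fold change -1.07, SE 0.16, edgeR adjusted p = 5.4e-05). The sum of the white adipocyte markers, which include Lep itself, went from 1036 to 2655 at 30 °C to 305 to 876 at 4 °C, and the part of this cell type in these falls was not tested.

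Interferon-stimulated genes were lower in cold in 17 of 19 cases and higher in none, with a median of -1.42, and again 17 by library size alone and 14 without the muscle-rich libraries. Ifit1, an antiviral RNA-binding protein, was at 22.1, 12.0 and 24.5 in cold and 97.3, 113, 126 and 108 at 30 °C (log2 fold change -2.49, SE 0.28, edgeR adjusted p = 2.8e-06), and Oasl2 at 61.3, 52.1 and 38.5 and 241, 257, 260.3 and 175 (log2 fold change -2.21, SE 0.21, edgeR adjusted p = 5.6e-07). Irf7, a transcription factor of this pathway, fell from 127 to 176 to 45.4 to 80.9 (log2 fold change -1.27, SE 0.24, edgeR adjusted p = 0.00035). The macrophage marker sum was 1132 to 1291 in cold and 1289 to 2235 at 30 °C, with 3 of 13 tested markers lower (5 without mouse 22) and none higher, and the lymphocyte sum was 80.1 to 174 and 131 to 245. Their part in the fall was not tested. Of 37 proteasome subunits 24 were higher and 3 lower (7 and 4 by library size alone), and the 3 were the interferon-inducible subunits Psmb8, Psmb9 and Psmb10 (-1.43, -1.67 and -0.83).

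Collagens were lower in 11 of 19 cases and higher in 2, with a median of -0.76 (15 and 1 of 20 by library size alone). The lower count was 5 without mouse 2 and 7 without mouse 5. Col3a1, a fibrillar collagen, was at 1227, 1179 and 1057 in cold and 2002, 2519, 1828 and 2215 at 30 °C (log2 fold change -0.89, SE 0.26, edgeR adjusted p = 0.01). The 2 that rose were Col4a1 and Col4a2 of basement membranes (0.98 and 1.41), the former not by library size alone (adjusted p = 0.149). Endothelial and angiogenic genes had 5 of 19 higher and 4 lower, close to the shares over all genes (2 and 8 by library size alone, and 3 and 5 of 18 without the muscle-rich libraries), with 3 higher when any of mice 1, 2, 21 or 22 was left out, and the endothelial marker sum was 7990.5 to 9033 in cold and 7619 to 9214 at 30 °C. Kdr, the VEGF receptor, was at 1958, 1734 and 2334 and 835, 961, 872 and 986 (log2 fold change 1.14, SE 0.15, edgeR adjusted p = 1.2e-05), and Eng, a coreceptor of TGF-beta, at 2392, 2214 and 2304 and 714, 742, 677 and 692 (log2 fold change 1.71, SE 0.22, edgeR adjusted p = 9e-06). Angpt1, the ligand of Tek, fell to 34.3, 29.4 and 49.0 from 677, 430.5, 422 and 525 (log2 fold change -3.76, SE 0.34, edgeR adjusted p = 4e-07). Of 5 tested erythrocyte markers 3 were higher in cold and none lower, with a sum of 8338 to 18617 against 1927 to 3620.5.

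The integrated stress response list had 4 of 18 higher and 4 lower (3 and 8 by library size alone), near the shares of 26.5% and 22.6% over all genes. Atf5, a transcription factor of this response, was at 2336, 1869.7 and 1435 in cold and 278, 515, 362 and 494 at 30 °C (log2 fold change 2.19, SE 0.26, edgeR adjusted p = 5.5e-06). Atf4 and Ddit3 did not pass (0.47 and 0.07). Of 25 chaperones and regulators of the endoplasmic reticulum 10 were higher and 4 lower (4 and 10 by library size alone). Their median lay 0.2918 above that of all genes with TMM and 0.3246 above it by library size alone. Manf, a secreted protein of the endoplasmic reticulum, rose from 204 to 282 to 1019.8 to 1417 (log2 fold change 2.28, SE 0.17, edgeR adjusted p = 6.9e-08) and Xbp1, a transcription factor of the unfolded protein response, fell from 1442 to 1684 to 585 to 610.3 (log2 fold change -1.39, SE 0.14, edgeR adjusted p = 1.3e-06). Of 23 heat shock proteins 6 were higher and 4 lower (5 and 6 by library size alone, 10 higher without mouse 22, and 1 lower without mouse 1), again near the shares over all genes, with the small heat shock proteins Hspb8 and Cryab moving apart (2.77 and -2.47). Cryab was highest in mouse 21, the mouse with the most muscle RNA. Defence against oxidants had 14 of 22 members higher and 2 lower (5 and 6 by library size alone), but 9 and 1 without the muscle-rich libraries. Its median lay 0.6733 above that of all genes with TMM and 0.6672 above it by library size alone. Sod2, the mitochondrial superoxide dismutase, was at 16304, 11777 and 11595 in cold and 2885, 3585, 3797 and 4799 at 30 °C (log2 fold change 1.81, SE 0.22, edgeR adjusted p = 4.7e-06), Srxn1 rose by 2.27 (SE 0.16) and Mt1, a metallothionein, by 1.33 (SE 0.29). Gpx3, the secreted glutathione peroxidase, fell from 36169.6 to 71787 to 12845 to 17095 (log2 fold change -1.79, SE 0.26, edgeR adjusted p = 3e-05).

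Of 15 tested cell cycle genes 4 were higher and 4 lower (2 and 10 of 18 by library size alone), near the shares over all genes, and the proliferation marker Mki67 was among those that fell (-1.84). Mitochondrial dynamics and genome maintenance had 9 of 19 higher and none lower (4 and 3 by library size alone). Autophagy had 9 of 19 higher and 2 lower (1 and 4 by library size alone), but 4 and 1 without the muscle-rich libraries and 5 higher without mouse 2. Its median lay 0.286 above that of all genes with TMM and 0.2926 above it by library size alone. Pink1, a kinase that marks damaged mitochondria, was among those that fell (-0.37).

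**Figure D4:**
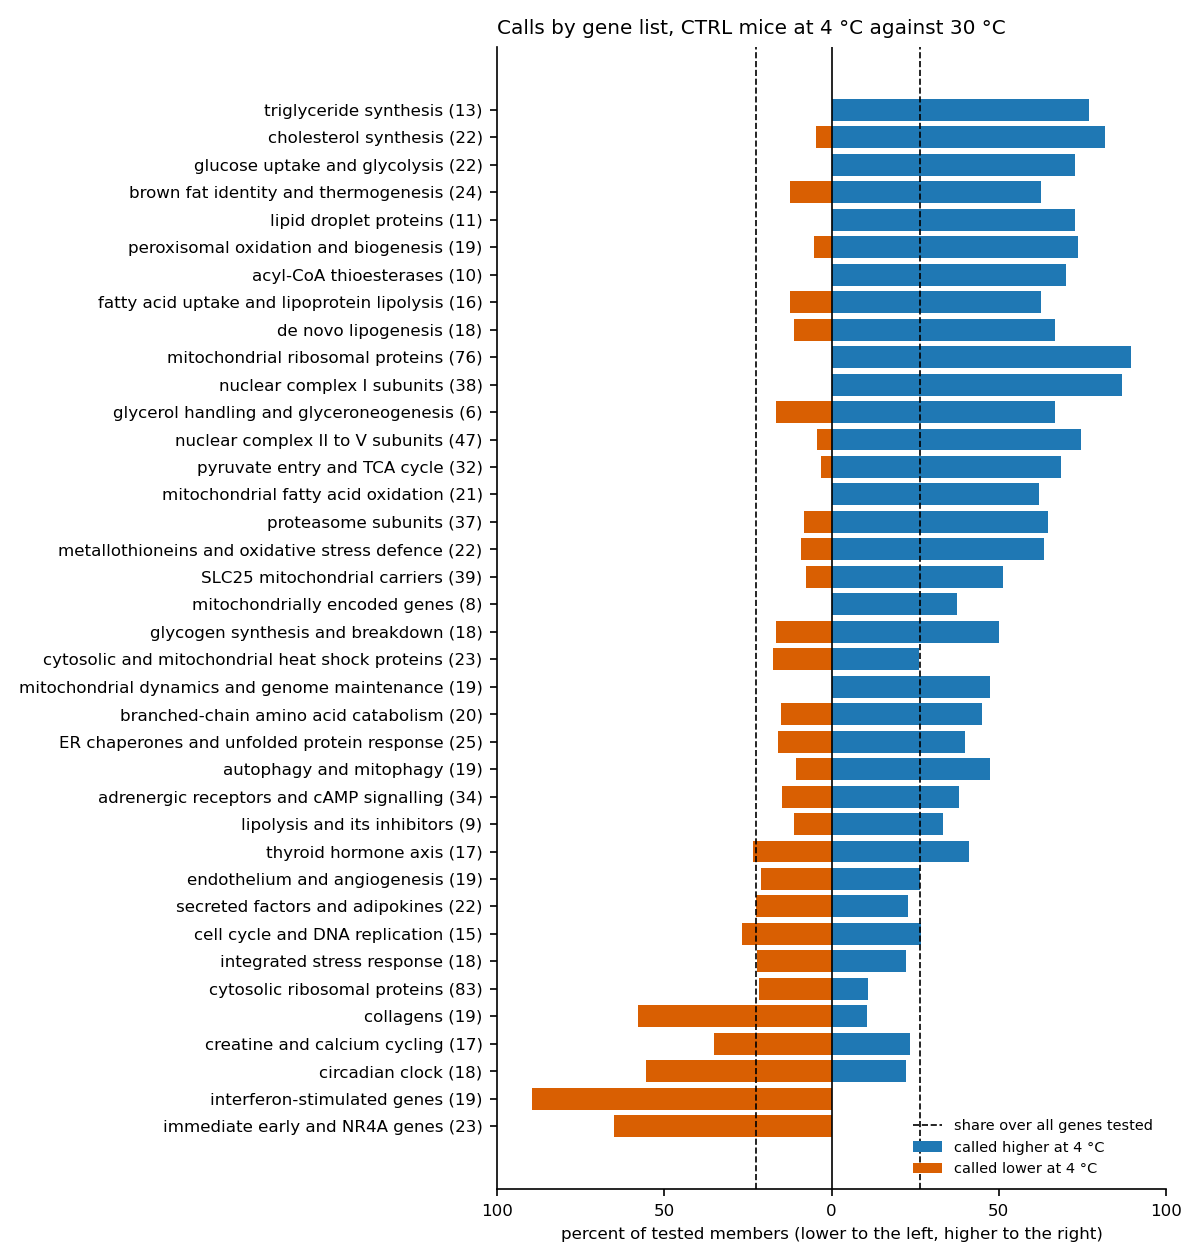
Share of the tested members of 38 gene lists that were called higher (blue, to the right) or lower (orange, to the left) in CTRL mice at 4 °C against 30 °C, with the number tested in brackets and lists ordered by median log2 fold change. Dashed lines give the shares over all 13257 genes tested, 26.5% higher and 22.6% lower. Mitochondrial ribosomal proteins and complex I subunits reach furthest to the right, and interferon-stimulated genes furthest to the left.

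The largest changes by rank, among genes with a mean above 50 and no overlap, included genes outside these lists. Besides Elovl3, Bmp8b and Gys2, the 12 largest rises included Cyp2b10, a cytochrome P450, at 725, 3651 and 3884 in cold and 5.21, 6.96, 2.71 and 7.39 at 30 °C (log2 fold change 8.93, SE 0.98, edgeR adjusted p = 2.2e-06). Mouse 1 was well below the others in cold, and reads of this gene may be shared with other members of its family. Slc25a34, an orphan carrier of the SLC25 list, was at 687, 969.6 and 494 and 17.4, 8.70, 9.04 and 4.23 (log2 fold change 6.14, SE 0.56, edgeR adjusted p = 4e-07), and Arhgef37, a guanine nucleotide exchange factor, at 204, 166 and 182 and 4.34, 1.74, 4.52 and 4.23 (log2 fold change 5.59, SE 0.39, edgeR adjusted p = 4.2e-08). These were nearly silent at 30 °C. Sgk2, a kinase, and Cpne5, a calcium-binding copine, had at most 2 counts in any mouse at 30 °C and normalised counts of 145, 402 and 323 and of 269.8, 568 and 307 in cold. The others were Cend1 (6.15), the long noncoding RNA 2310069B03Rik (5.73) and the antisense genes Gm15241 (6.79) and Gm16062 (6.46). The last pair overlap Adgrg2 and Cops3 on the opposite strand, and the strand setting of the counting is not given in the sources used here.

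The 12 largest falls included Egr3 and Lep, described above. Strip2 was at 2.45, 2.67 and 9.33 in cold and 422, 357, 275 and 269 at 30 °C (log2 fold change -6.03, SE 0.48, edgeR adjusted p = 1.4e-07), and Cdsn, known from skin, at 0, 1.34 and 15.2 and 310.03, 310.4, 176 and 211 (log2 fold change -5.43, SE 0.66, edgeR adjusted p = 5.9e-06). Snhg11, a host of small nucleolar RNAs, was at 14.7, 10.7 and 36.2 and 1504, 642, 1009 and 738 (log2 fold change -5.54, SE 0.74, edgeR adjusted p = 1.6e-05). All mice in cold were far below those at 30 °C. Impdh1, of guanine nucleotide synthesis, was at 194, 100.2 and 82.8 in cold and 2125, 1881, 1458 and 1689 at 30 °C (log2 fold change -3.83, SE 0.45, edgeR adjusted p = 4.4e-06), and Gmpr, which converts GMP to IMP, rose (log2 fold change 5.07, SE 0.54, edgeR adjusted p = 1.6e-06). Mycl, a relative of Myc, fell by 4.50 (SE 0.66), Apcdd1, an inhibitor of Wnt signalling, by 4.33 (SE 0.40), Vat1l by 4.39 (SE 0.40) and the noncoding RNA Gm49492 by 3.89 (SE 0.33). Nnat, a white adipocyte marker that lies wholly within Blcap on the opposite strand, was at 15.9, 29.4 and 40.8 in cold and 1165, 958, 68.7 and 95.1 at 30 °C (log2 fold change -4.31, SE 0.96, edgeR adjusted p = 0.0015). Its mice at 30 °C fell into 2 levels, with mice 19 and 20 far above mice 21 and 22, as for Egr1 and Btg2.

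To see whether the response was particular to CTRL mice, it was compared with that of the 9 BATKO mice, which share no mouse with it. Cold raised 2832 genes (21.4%) and lowered 2503 (18.9%) in BATKO mice, 40.2% of genes in all, and 4106 of the 6504 genes called in CTRL mice were called in the same direction in BATKO mice. The difference of both responses passed the test in 149 genes (1.12%), of which 107 (0.807%) had the larger log2 fold change in CTRL mice. By library size alone the balance turned, with 71 differences of which 14 were higher and 57 lower in CTRL mice. Ucp1 was at 91116, 119145, 154485 and 73892 in BATKO mice at 4 °C and 4646, 10002, 11919, 12737 and 11518 at 30 °C, a log2 fold change of 3.43, and its difference from CTRL mice did not pass (0.97, SE 0.63, edgeR adjusted p = 0.43). Nor did those of Dio2 (0.62), Elovl3 (0.74) or Myc (-0.14), with SE of 1.15, 0.93 and 0.55. The number of called differences depended on single mice, since leaving out any of 13 of the 16 moved it by over 1.5 times. It was 5 without mouse 1, 20 without mouse 2, 891 without mouse 5, 33 without mouse 19 or without mouse 20, and 17 without mouse 21. Without a BATKO mouse it was 49 (mouse 7), 64 (mouse 8), 62 (mouse 12), 227 (mouse 13), 41 (mouse 14), 36 (mouse 16) or 38 (mouse 17). It was 3 without the muscle-rich libraries, which leaves 1 BATKO mouse at 4 °C that is assumed to vary like the other groups.

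**Figure D5:**
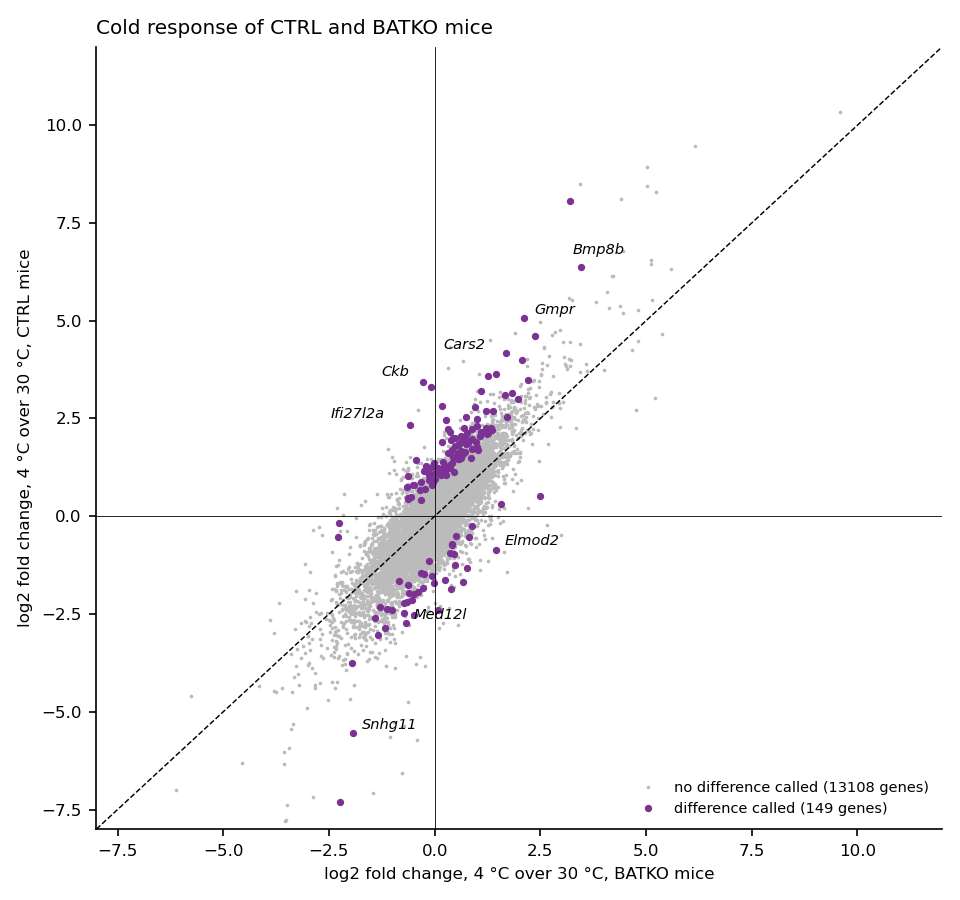
Log2 fold change of cold over 30 °C in CTRL mice (y axis) against that in BATKO mice (x axis) for 13257 genes. Purple points are the 149 genes whose difference between the genotypes passed an adjusted p of 0.05, grey points all other genes and the dashed line equal change. Ckb lies far above that line, at 3.43 in CTRL mice and -0.27 in BATKO mice, and Elmod2 lies below it, at -0.85 and 1.45.

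Elmod2, Ckb and Cars2 had the most stable differences. Each passed with any 1 of the 16 mice left out, and Elmod2 passed in all 23 alternatives. Elmod2 was at 135, 123 and 169 in CTRL mice in cold and 215, 217, 270.2 and 326 at 30 °C (log2 fold change -0.85, SE 0.20, edgeR adjusted p = 0.0022). In BATKO mice it was at 1816, 1619, 2757 and 2491 in cold and 735, 799, 903, 797 and 748 at 30 °C, higher than in any CTRL mouse at both temperatures (difference -2.30, SE 0.26, edgeR adjusted p = 0.0008). It lies on chromosome 8 at 83312632 to 83332486 on the minus strand, next to Ucp1 at 83290352 to 83298452 on the plus strand (GENCODE vM21, GRCm38). Ckb, which rose in CTRL mice, was at 67.1, 119, 122 and 69.5 in BATKO mice in cold and 87.9, 188, 62.4, 112 and 118 at 30 °C, with overlapping groups (difference 3.70, SE 0.44, edgeR adjusted p = 0.00097). Cars2, the mitochondrial cysteinyl-tRNA synthetase, was at 1428, 972 and 946 in CTRL mice in cold and 61.7, 58.3, 62.4 and 65.5 at 30 °C (log2 fold change 4.17, SE 0.22, edgeR adjusted p = 3.2e-09). It rose less in BATKO mice, from 54.6 to 83.7 to 157 to 302 (difference 2.48, SE 0.28, edgeR adjusted p = 0.0008), and overlaps Naxd on the opposite strand. Hk1, hexokinase 1, was at 667, 604 and 449 in CTRL mice in cold and 96.4, 110.4, 146 and 137 at 30 °C (log2 fold change 2.23, SE 0.24, edgeR adjusted p = 1.6e-06), while the ranges in BATKO mice, 156 to 300.2 and 125 to 245, overlapped (difference 1.91, SE 0.31, edgeR adjusted p = 0.016).

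Other differences were lost more often, and those of the next 6 genes passed in 9 to 19 of 23 alternatives. Gmpr rose to 9151, 13278 and 8859.7 in CTRL mice in cold from 177, 371, 298 and 393 at 30 °C, and to 614, 1442, 5264 and 1576 in BATKO mice from 406 to 607 (difference 2.95, SE 0.65, edgeR adjusted p = 0.037). It overlaps Atxn1 on the opposite strand. Ifi27l2a, named for an interferon response, was at 1957, 1040.4 and 1111 in CTRL mice in cold and 122, 413, 263 and 279.9 at 30 °C (log2 fold change 2.34, SE 0.45, edgeR adjusted p = 0.00039), a direction opposite to that of the interferon list, and in BATKO mice it was at 165 to 621 in cold and 263 to 722 at 30 °C (difference 2.93, SE 0.60, edgeR adjusted p = 0.032). Bmp8b rose less in BATKO mice, to 74.6 to 172 (difference 2.90, SE 0.62, edgeR adjusted p = 0.036). Among genes that fell more in CTRL mice, Med12l was at 14.7, 14.7 and 16.3 in cold against 82.6 to 135 (difference -2.05, SE 0.37, edgeR adjusted p = 0.022), though several other genes lie within it. Snhg11 had a difference of -3.61 (SE 0.84) and the processed pseudogene Gm20056 of -1.86 (SE 0.40). Gm45716 rose in BATKO mice, from 25.8 to 56.3 to 178 to 332, and was at 51.5, 93.5 and 87.5 in CTRL mice in cold and 43.4, 50.4, 59.7 and 62.3 at 30 °C (difference -1.98, SE 0.36, edgeR adjusted p = 0.023). It passed in 20 of 23 alternatives, and it overlaps Mmd and Gm45883 on the same strand.

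Among list members, 7 further named genes had a called difference. Over all genes tested the share was 1.12%. These 7 are not a count over the lists, since other members with a called difference are not named. Mitochondrial ribosomal proteins had 3 among 76 and heat shock proteins 1 among 23. Igf1, Pck1 and Pfkl passed in only 4 of the 16 fits that leave out 1 mouse and Angpt1 in 5, against 12 for Hlf and Kdr and 15 for Hk1. The clock output Hlf (-1.35, SE 0.26), Igf1 (-1.25, SE 0.28) and Angpt1 (-1.80, SE 0.41) fell more in CTRL mice. Kdr (1.05, SE 0.20) and the phosphofructokinase Pfkl (1.47, SE 0.33) rose more in CTRL mice. Pck1, not called in CTRL mice, was at 17958, 22301, 18415 and 16453 in BATKO mice in cold and 8103 to 11689 at 30 °C (difference -1.15, SE 0.26, edgeR adjusted p = 0.043). Hk1, described above, completes them.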

How the data were processed

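The authors deposited raw counts of reads per gene for 16 mice, without normalization, and each column was matched to a mouse by its label, with 0 columns left without a sample. The processing notes name Bowtie2 2.3.2.2, DESeq2 and mm10. The paper's methods name htseqcount and removal of reads of low mapping quality for its thyroid hormone data, and whether the temperature table was made likewise is not stated. Annotation and strand setting are not given in the sources used here. Of 55341 genes, 14 symbols turned into dates by a spreadsheet (0.0333% of counts) were left out.

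Counts were analysed in R 4.3.3 with edgeR 4.0.16 (TMM, genes with a mean normalised count above 10, quasi-likelihood test, Benjamini-Hochberg adjustment, threshold 0.05), in a fit of all 16 mice whose groups share 1 estimate of the spread. Normalised counts are counts divided by the effective library size and multiplied by its mean over the 16 mice. Contrasts were cold against 30 °C in CTRL mice, the same in BATKO mice, and their difference. The scripts were tested on simulated data. The 38 gene lists and 10 marker lists were chosen with earlier results of these data known, so they are described by counts and medians and not tested. Named genes are list members, the 12 largest changes in each direction with a mean above 50 and no overlap, and the 5 largest differences between genotypes in each direction with a mean above 50. Sgk2, Cpne5, Fgf21 and Acot12, with at most 2 counts in any CTRL mouse at 30 °C, are given no fold. Some genes that the rule takes are not reported here. No library was a copy of another of its group (chi-square of the counts over degrees of freedom at least 13.6). Gene positions are from GENCODE vM21 (GRCm38).

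Alternatives were DESeq2 1.42.0, its size factors in edgeR, scaling without mitochondrially encoded genes, no filter, a mean above 50, only the 7 CTRL mice, and each mouse left out in turn. Library size alone and leaving out the 7 libraries with a muscle marker sum above 10000 (CTRL mice 20 and 21 and 5 BATKO mice) were added after seeing the data.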

Additional observations from a re-analysis of the deposited data

Results flagged for a closer look

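In the CTRL mice at 30 °C, 1 of the 4 mice stood apart from the other mice in 9 of the 147 groups tested, by Dixon's criterion on the gap to the nearest mouse over the whole range, and chance alone would give about 7.35 such groups (1 in 20). Mouse 19 was high in Arntl (gap 0.9244 of the range) and low in Fasn (0.8332) and Aldoa (0.8728). Mouse 20 was high in the immediate early genes Jun (0.8947) and Nr4a1 (0.8691) and low in Arhgef37 (0.8943), a gene near the detection limit at 30 °C. Mouse 22 was high in Ppargc1a (0.8497), Pck1 (0.8402) and mt-Co1 (0.8678). The groups of 3 mice at 4 °C were not tested in this way.

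The cold response differed between CTRL and BATKO mice, by the interaction test of edgeR, in 17 of the 137 named genes. Of these, 10 had been chosen for the size of this difference, and 7 were among the other 127. Over all genes tested the share was 1.12%. The 127 were picked with results of these data known, so their share cannot be set against it. The differences of log2 fold change, CTRL minus BATKO, were positive for Ckb (3.699), Gmpr (2.955), Ifi27l2a (2.933), Bmp8b (2.903), Cars2 (2.476), Hk1 (1.91), Pfkl (1.469) and Kdr (1.046). They were negative for Snhg11 (-3.611), Elmod2 (-2.298), Med12l (-2.048), Gm45716 (-1.976), Gm20056 (-1.862), Angpt1 (-1.803), Hlf (-1.353), Igf1 (-1.25) and Pck1 (-1.146).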

How the results depend on the processing

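No paired analysis was possible because the CTRL groups share no mouse number. For the cold response of CTRL mice, DESeq2, its size factors, scaling without mitochondrial genes, both filters and a fit of only the 7 CTRL mice gave 5190 to 6544 calls, and leaving out each mouse gave 5391 to 6533. All 137 named genes kept their direction and call by DESeq2. By library size alone there were 1336 higher and 6225 lower genes in CTRL mice, 4333 of all 7561 calls being shared with the TMM scale, and 1107 higher and 5023 lower in BATKO mice. Thra (-0.44), Pnpla2 (-0.41), Lipe (-0.39) and Gm45716 (-0.066), all uncalled with TMM, changed sign. Among the 137, 7 called genes lost and 4 gained a call on that scale. Lipe also changed sign without mouse 1 (-0.061, with a range of -0.061 to 0.305 over the mice left out). Ratios of marker sums, 4 °C over 30 °C, became 4.367 for brown adipocytes, 0.4584 for macrophages, 0.6809 for endothelium, 0.4331 for nerve and Schwann cells and 0.2011 for mesothelium, against 6.363, 0.7038, 1.027, 0.6548 and 0.3111 with TMM. Without the muscle-rich libraries, CTRL mice had 4626 calls, of which 4522 were shared, and BATKO mice, with 1 mouse left at 4 °C, had 601 (364 higher, 237 lower). The 149 differences between genotypes (107 higher, 42 lower) were the least stable. DESeq2 called 651 (460 and 191), library size alone 71 (14 higher), and the fit without muscle-rich libraries 3 (0 and 3). Leaving out 1 mouse gave 5 to 891 differences, of which 4 to 593 were higher and 1 to 298 lower. The lowest was without CTRL mouse 1 and the highest without CTRL mouse 5. The cause of these changes was not tested. With 3 mice against 4, genes with few counts at 30 °C limit what folds can be given.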
